A study of Mus musculus with 18 samples.

Results

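The 33 genes described here are the 20 cytosolic aminoacyl-tRNA synthetases that carry the older symbols of the Aars to Yars type and 13 genes of the ATF4 pathway. They were chosen by symbol, and each was found as a row of the deposited count table through the gene names of GENCODE release M21 (GRCm38). All 33 were among the 48023 genes of the table, and all 33 passed the filter on low counts that left 15071 genes for testing. Immortalized mouse brown preadipocytes, a cultured line of fat precursor cells, received vehicle or recombinant FGF6 at 200 ng/ml for 4, 8, or 24 h, with 3 libraries in each of the 6 groups. Vehicle cells were collected at each time, so every FGF6 group had vehicle libraries of the same hour. All groups came from 1 kind of immortalized cell, and nothing in the labels says whether the 3 libraries of a group were separate cultures. The p-values therefore measure the spread between these libraries, which may be technical.

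Aminoacyl-tRNA synthetases load each amino acid onto its transfer RNA and so feed the ribosome. ATF4 is a transcription factor whose mRNA is translated more when the initiation factor eIF2 is phosphorylated, as happens when amino acids run short or unfolded protein builds up in the endoplasmic reticulum. With partners such as C/EBP proteins it binds composite DNA elements and switches on genes for amino acid synthesis, transport, and tRNA charging, together with stress and feedback genes such as those for CHOP, TRIB3, and Sestrin 2. The members were ordered by role. There were 12 synthetases that are widely listed as ATF4 targets (Aars, Cars, Eprs, Gars, Iars, Lars, Mars, Nars, Sars, Tars, Wars, and Yars) and 8 other synthetases (Dars, Farsa, Farsb, Hars, Kars, Qars, Rars, and Vars). A further 4 genes make serine or asparagine, 6 are stress and feedback genes, and 3 are transcription factors.

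The promoter windows of the members were searched for the letters TGATGNAA on both strands, the ATF4 and C/EBP composite element, because these are the sequences through which the pathway is known to act. This search was chosen with results of these data in view. A RefSeq window from 250 bases before to 50 bases after the gene start (GRCm38.p6) was found for 25 members, and 9 of them (36.0%) held the letters. Among all 27025 genes with a window, 1219 (4.511%) held them. For 8 of these members, the site of each is given with 11 bases on each side, in the direction of the gene, with the element in capitals.
Gars, chr6:55037960-55037989: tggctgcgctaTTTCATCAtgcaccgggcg
Iars, chr13:49682126-49682155: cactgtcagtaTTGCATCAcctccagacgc
Tars, chr15:11399655-11399684: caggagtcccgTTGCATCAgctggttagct
Yars, chr4:129189895-129189924: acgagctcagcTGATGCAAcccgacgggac
Asns, chr6:7693214-7693243: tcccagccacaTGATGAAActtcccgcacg
Chac1, chr2:119351038-119351067: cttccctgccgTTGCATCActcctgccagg
Trib3, chr2:152344028-152344057: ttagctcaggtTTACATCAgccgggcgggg
Vldlr, chr19:27216809-27216838: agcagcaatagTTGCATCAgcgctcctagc
The element lay on the opposite strand to the gene in 6 of these 8 sites and on the gene's own strand in Yars and Asns. By role, 5 of 7 synthetases listed as ATF4 targets with a window held it, against 0 of 5 other synthetases with a window. The letters were also present in Asns, 1 of 4 genes of serine and asparagine synthesis, in 3 of 6 stress and feedback genes, and in 0 of 3 transcription factors. Listing as an ATF4 target can itself rest on this element, so these shares are no independent support for the listing. A match of letters is a description of the sequence and does not show binding.

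The 18 libraries held between 24327816 and 33471980 counts each. Expression is given below in CPM, the depth-scaled unit in which a count is divided by the library total after TMM scaling, with TMM factors between 0.951 and 1.05. Of the preadipocyte and stromal markers, 8 of 9 were measured and summed to 2223 to 2367 CPM with vehicle and 2336 to 2382 CPM with FGF6 at 4 h, to 2316 to 2371 and 2044 to 2113 CPM at 8 h, and to 2269 to 2372 and 1566 to 1637 CPM at 24 h. Of these 8, 5, 6, and 7 were lower with FGF6 at 4, 8, and 24 h and 1 was higher at each time. Dlk1 was the marker at 0. Summed markers of mature adipocytes were low and lower with FGF6, at 14.4 to 15.8 CPM with vehicle and 7.10 to 7.39 CPM with FGF6 at 4 h, 17.7 to 18.5 and 6.99 to 7.68 CPM at 8 h, and 29.1 to 33.3 and 8.21 to 9.11 CPM at 24 h. Those of immune cells were higher with FGF6 at 4 h (10.6 to 11.6 against 16.3 to 16.7 CPM) and 8 h (7.57 to 8.90 against 9.77 to 10.3 CPM) and lower at 24 h (5.76 to 6.235 against 3.03 to 3.64 CPM). Lep and Adgre1 were at or near 0. Only 3 of 6 mature adipocyte markers and 1 of 4 immune markers passed the filter on low counts. At 8 h Adgre1, Itgam, and Ptprc were at 0 in both groups, so the immune sum there was Cd68 alone. Endothelial, epithelial, and skeletal muscle markers each summed to 8.99 CPM or less. With FGF6 the first 2 sums were higher and the muscle sum was lower at each time. At 24 h endothelial markers summed to 0.965 to 1.30 CPM with vehicle and 3.71 to 5.65 CPM with FGF6. Epithelial markers then summed to 0.168 to 0.490 and 1.57 to 2.57 CPM, and muscle markers to 5.85 to 6.77 and 1.605 to 2.13 CPM. Of 4 markers in each list, 2, 2, and 3 passed the filter. RNA was measured in bulk, so a gene with less RNA per cell and a smaller share of cells that express it cannot be told apart, and the part of these marker changes in the FGF6 results at each time was not tested. The vehicle library at 24 h with replicate number 3 stood apart from the rest. Scaled to the library total, it held the mitochondrial ribosomal RNA mt-Rnr2 at 1522 CPM, against 285 to 631 CPM in the other 17 libraries, and Lars2 at 2377 CPM against 143 to 206 CPM. Results at 24 h are therefore also given without it.

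FGF6 raised most cytosolic synthetase genes at each time, by amounts whose median was larger at later times. At 4 h, 17 of the 20 synthetases were higher and 1, Mars, was lower at an adjusted p under 0.05. At 8 h, 19 were higher and none lower, and at 24 h 17 were higher and none lower. Over the whole table, 28.6% of the tested genes were higher at 4 h, 32.4% at 8 h, and 35.9% at 24 h, and 34.2%, 38.4%, and 37.9% were lower. The median log2 fold change of the 20 synthetases was 0.24 at 4 h, 0.40 at 8 h, and 0.54 at 24 h, against -0.05, -0.05, and -0.02 over all genes tested. The range was -0.09 to 0.52 at 4 h, 0.04 to 0.73 at 8 h, and -0.05 to 0.86 at 24 h, so that the largest rise was 1.82-fold. Summed over the 20 genes, the vehicle libraries at 4 h lay at 5644, 5837, and 5928 CPM and the FGF6 libraries at 6560, 6797, and 6766 CPM. At 8 h the sums were 4433, 4287, and 4241 CPM with vehicle and 5574, 5542, and 5443 CPM with FGF6. At 24 h they were 4253, 4235, and 4247 CPM with vehicle and 5546, 5682, and 5692 CPM with FGF6. The 2 groups of 3 did not overlap at any time. Both conditions were highest at 4 h, so the larger effects later came with lower levels in both.

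The sizes at 4 h rest on the scaling of the libraries. With library totals alone in place of TMM factors, the median of all genes at 4 h moved by -0.10 on the log2 scale, and 45.5% of called genes being higher became 33.3%. Of the 20 synthetases, 12 were then higher and 3 lower at 4 h, and the values of Aars, Eprs, and Lars changed sign. At 8 h 18 were higher under that scaling and at 24 h 17. With upper-quartile factors, 17 of the 33 members were higher at 4 h in place of 23. Without the vehicle library that stood apart, 23 members higher at 24 h became 25 and 4 lower became 3. No member's value at 24 h then moved by more than 0.10 on the log2 scale. The counts were also 25 and 3 without any 1 FGF6 library of 4 h, so this change was not particular to that vehicle library. Leaving out 1 library moved the median of all genes at 24 h by up to 0.044.

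Changes of 1.5-fold or more were few at first. At 4 h, 0 members rose and 3 fell by that much (Ddit4, Sesn2, and Atf5), against 9.70% and 13.7% of all genes tested. At 8 h, 3 rose (Tars, Farsb, and Vars) and 4 fell (Ddit3, Ddit4, Sesn2, and Vldlr), against 13.8% and 19.6%. At 24 h, 9 rose, namely Gars, Iars, Lars, Mars, Tars, Farsb, Rars, Vars, and Psat1, and Ddit3 and Sesn2 fell, against 15.3% and 23.0%. The FGF6 effect itself differed between 4 and 8 h for 15 of the 33 members and between 8 and 24 h for 19, against 30.6% and 45.1% of all genes (edgeR interaction, adjusted p under 0.05). It differed by 1.5-fold or more for Ddit4 and Vldlr from 4 to 8 h and for these and Ddit3 from 8 to 24 h, against 7.53% and 15.8% of all genes.

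**Figure D1:**
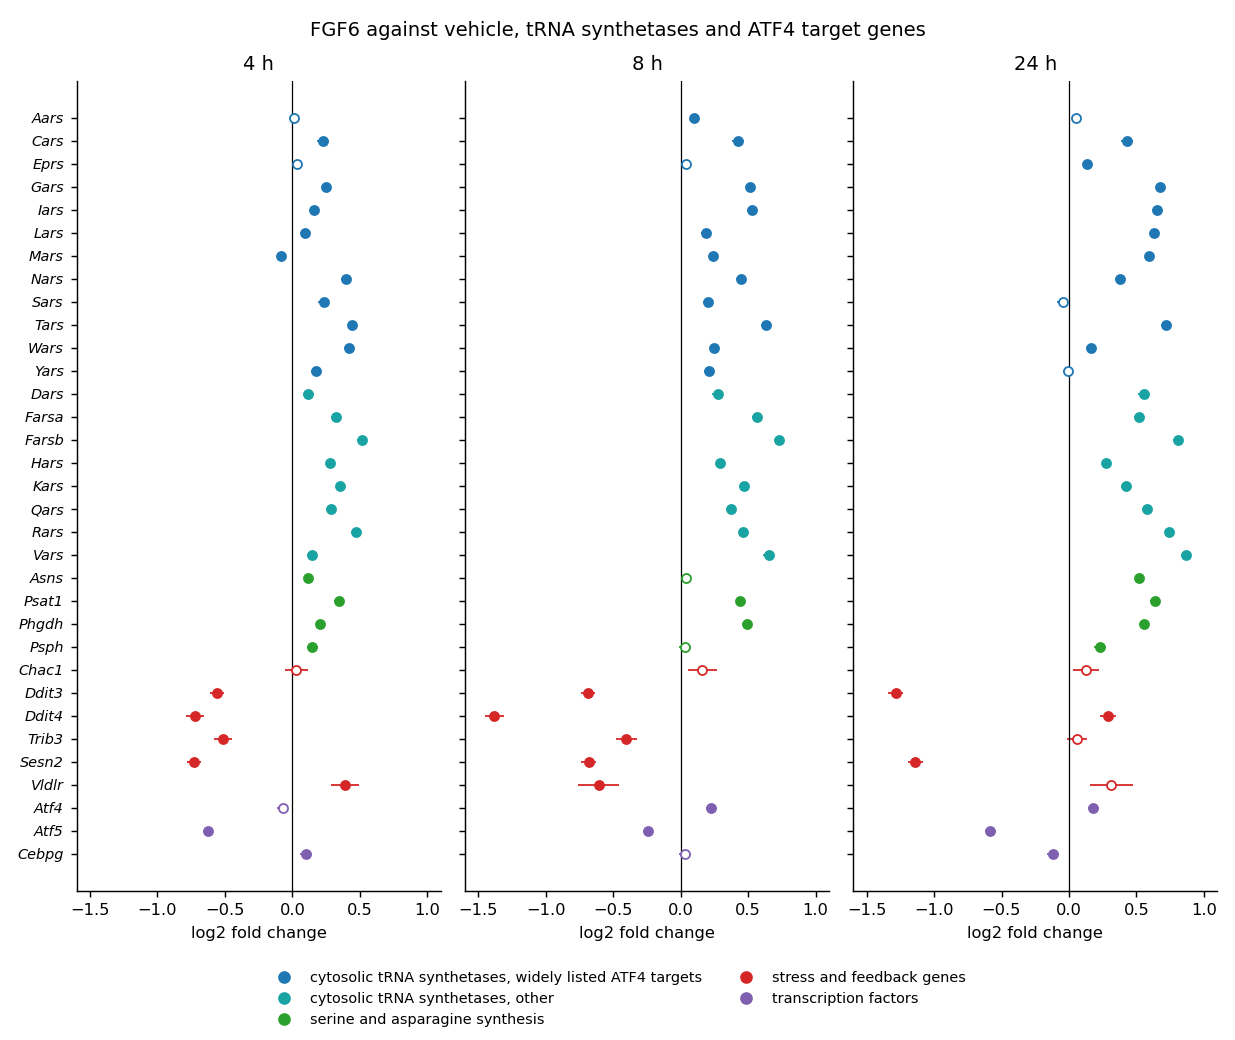
Log2 fold change of FGF6 against vehicle for the 33 genes (horizontal axis), 1 panel for each time, with bars for the SE of the fit and colours for the role. Filled points passed an adjusted p under 0.05. Points of the 20 synthetases lie between -0.09 and 0.52 at 4 h and between -0.05 and 0.86 at 24 h, while Ddit3 and Sesn2 lie at -1.29 and -1.14 at 24 h.

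Among the synthetases listed as ATF4 targets, 9 of 12 rose at 4 h, 11 at 8 h, and 9 at 24 h, with median log2 fold changes of 0.20, 0.24, and 0.40. Tars, Gars, and Iars had the largest effects at 8 and 24 h, and at 4 h Tars was followed by Wars and Nars. Tars (ENSMUSG00000022241, chr15:11382301-11399665, minus strand) encodes threonyl-tRNA synthetase. At 4 h, Tars stood at 378, 405 and 411 CPM in the vehicle libraries and at 526, 541 and 558 CPM in the FGF6 libraries. By 8 h, Tars was at 261, 238 and 246 CPM with vehicle and at 387, 389.8 and 378 CPM with FGF6. After 24 h, Tars was at 230.1, 227 and 226 CPM with vehicle and at 372, 379 and 372 CPM with FGF6. All 3 FGF6 libraries were above all 3 vehicle libraries at each time, while both groups were lower at 8 h than at 4 h. For Tars, the log2 fold changes were 0.44 ± 0.04 (SE), 0.63 ± 0.04 and 0.72 ± 0.04 at 4, 8, and 24 h (edgeR adjusted p = 4.62e-11, 3.12e-14 and 1.89e-15).

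Gars (ENSMUSG00000029777, chr6:55038007-55079500, plus strand) encodes the glycyl-tRNA synthetase. At 4 h, Gars stood at 476, 492 and 495 CPM in the vehicle libraries and at 554, 584 and 602 CPM in the FGF6 libraries. By 8 h, Gars was at 319, 300.5 and 306 CPM with vehicle and at 439, 449 and 432 CPM with FGF6. After 24 h, Gars was at 288, 271 and 285 CPM with vehicle and at 441, 448 and 459 CPM with FGF6. The libraries did not overlap at any time. In Gars, log2 fold changes of 0.25 ± 0.03 (SE), 0.51 ± 0.03 and 0.68 ± 0.04 at 4, 8, and 24 h (edgeR adjusted p = 7.4e-07, 1.26e-12 and 3.57e-15) were found. The effect was larger at 8 than at 4 h by 0.26 ± 0.05 (SE) and larger at 24 than at 8 h by 0.16 ± 0.05 (SE) on the log2 scale (edgeR interaction, adjusted p = 0.000187 and 0.00833).

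Iars (ENSMUSG00000037851, chr13:49682100-49734267, plus strand) charges isoleucine. At 4 h, Iars stood at 262, 268 and 269 CPM in the vehicle libraries and at 297, 303 and 294 CPM in the FGF6 libraries. By 8 h, Iars was at 170.0, 162 and 164 CPM with vehicle and at 238, 240.1 and 238 CPM with FGF6. After 24 h, Iars was at 169.7, 161 and 171 CPM with vehicle and at 258, 257 and 272 CPM with FGF6. The FGF6 libraries were above the vehicle libraries at each time, and at 24 h they lay near the vehicle level of 4 h. The log2 fold changes for Iars were 0.16 ± 0.03 (SE), 0.53 ± 0.03 and 0.65 ± 0.03 at 4, 8, and 24 h (edgeR adjusted p = 9.4e-05, 1.66e-13 and 1.65e-15).

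Mars, for methionine, moved the other way first (ENSMUSG00000040354, chr10:127296221-127311786, minus strand). At 4 h, Mars stood at 231, 237 and 239.6 CPM in the vehicle libraries and at 217, 224 and 225 CPM in the FGF6 libraries. By 8 h, Mars was at 195, 194 and 187 CPM with vehicle and at 231, 225 and 223 CPM with FGF6. After 24 h, Mars was at 167, 167 and 161 CPM with vehicle and at 246, 255 and 248 CPM with FGF6. The FGF6 libraries were all below the vehicle libraries at 4 h and all above them later. Accordingly, Mars had log2 fold changes of -0.09 ± 0.03 (SE), 0.24 ± 0.03 and 0.60 ± 0.03 at 4, 8, and 24 h (edgeR adjusted p = 0.0159, 1.85e-07 and 3.77e-15). The call at 4 h was lost in 14 of 26 alternative settings. Over all 26, the value ran from -0.19 to -0.05 with an adjusted p up to 0.247. Mars shares 68 exonic bases with Ddit3 on the other strand, and the strand setting of the counting was not given in the sources used here.

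The other synthetases of this group differed in their time course. On the log2 scale Lars, for leucine, rose by 0.09, 0.18, and 0.63 at 4, 8, and 24 h, and its effect grew by 0.45 ± 0.04 (SE) between 8 and 24 h (edgeR interaction, adjusted p = 4.56e-09). The call of Lars at 4 h was lost without the vehicle library of 4 h with replicate number 1, at 0.08. Cars, for cysteine, and Nars, for asparagine, were higher at all times, at 0.22, 0.42, and 0.43 for Cars and 0.39, 0.45, and 0.38 for Nars. Wars, Sars, and Yars, which charge tryptophan, serine, and tyrosine, showed their effect early. Wars went from 0.42 at 4 h to 0.25 at 8 h, a change of -0.17 ± 0.05 (SE) (adjusted p = 0.0125, edgeR interaction), and was at 0.17 at 24 h. Sars and Yars were higher by 0.20 and 0.21 at 8 h and were no longer called at 24 h (-0.05 and -0.0047). Their effects changed between 8 and 24 h by -0.25 ± 0.05 (SE) and -0.22 ± 0.05 (SE) (edgeR interaction, adjusted p = 0.000408 and 0.00134). Aars, for alanine, was called at 8 h alone, at 0.10. That call was lost with library totals alone (0.03) and with upper-quartile factors (0.05). At 24 h Aars was at 0.05 and was called in 10 of 26 alternatives, among them 9 that left out 1 library, with values of 0.08 to 0.12. Eprs, which charges glutamate and proline, was called at 24 h, at 0.13. At 8 h Eprs was at 0.04 and was called in 11 of 26 alternatives, with values of 0.07 to 0.08. Aars shares 1326 exonic bases with Exosc6 on the same strand and Cars 211 with Gm15580 on the other, so their counts may hold reads of those genes.

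All 8 other synthetases were higher at each time, with median log2 fold changes of 0.30, 0.47, and 0.56. At 4 h the calls of Dars and Vars were lost with library totals alone, at 0.02 and 0.04, and with upper-quartile factors, at 0.06 and 0.09. Vars, Farsb, and Rars had the largest values at 24 h. Vars (ENSMUSG00000007029, chr17:35000987-35016322, plus strand), for valine, had the largest effect of any member synthetase at 24 h. At 4 h, Vars stood at 340.0, 323 and 316 CPM in the vehicle libraries and at 361, 375 and 346 CPM in the FGF6 libraries. By 8 h, Vars was at 316, 304 and 299 CPM with vehicle and at 492, 480.4 and 472 CPM with FGF6. After 24 h, Vars was at 287, 271 and 267 CPM with vehicle and at 486, 497 and 519 CPM with FGF6. The vehicle libraries were slightly lower at later times and the FGF6 libraries were higher at 8 and 24 h than at 4 h, and the groups did not overlap. Its log2 fold changes were 0.14 ± 0.04 (SE), 0.65 ± 0.04 and 0.86 ± 0.04 at 4, 8, and 24 h (edgeR adjusted p = 0.0018, 5.99e-14 and 1.37e-16). For Vars, the effect grew by 0.51 ± 0.05 (SE) from 4 to 8 h and by 0.21 ± 0.05 (SE) from 8 to 24 h (edgeR interaction, adjusted p = 7.96e-08 and 0.00195).

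Farsb (ENSMUSG00000026245, chr1:78417975-78488897, minus strand) encodes the beta subunit of phenylalanyl-tRNA synthetase. At 4 h, Farsb stood at 91.8, 98.5 and 103 CPM in the vehicle libraries and at 135, 141 and 143 CPM in the FGF6 libraries. By 8 h, Farsb was at 83.5, 83.4 and 80.8 CPM with vehicle and at 139, 139 and 133 CPM with FGF6. After 24 h, Farsb was at 73.0, 74.6 and 73.7 CPM with vehicle and at 128, 130.4 and 128 CPM with FGF6. Each FGF6 library was above each vehicle library of its time. In Farsb, the log2 fold changes were 0.52 ± 0.04 (SE), 0.73 ± 0.04 and 0.80 ± 0.04 at 4, 8, and 24 h (edgeR adjusted p = 3.72e-12, 2.45e-15 and 3.29e-16). The alpha subunit gene Farsa was also higher at each time, by 0.32, 0.57, and 0.52, so the mRNAs of both subunits rose. Farsb shares 248 exonic bases with Sgpp2 on the other strand.

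Rars (ENSMUSG00000018848, chr11:35808381-35834506, minus strand) charges arginine. At 4 h, Rars stood at 147, 155 and 156 CPM in the vehicle libraries and at 208, 215 and 211 CPM in the FGF6 libraries. By 8 h, Rars was at 148, 148 and 152 CPM with vehicle and at 209, 204 and 204 CPM with FGF6. After 24 h, Rars was at 138, 139.5 and 143 CPM with vehicle and at 239, 235 and 227 CPM with FGF6. The vehicle libraries stayed within 138 to 156 CPM over the whole time course. Rars had log2 fold changes of 0.47 ± 0.03 (SE), 0.46 ± 0.03 and 0.74 ± 0.03 at 4, 8, and 24 h (edgeR adjusted p = 1.63e-12, 1.28e-12 and 6.62e-17). The remaining 4 genes, Dars, Hars, Kars, and Qars, for aspartate, histidine, lysine, and glutamine, lay between 0.12 (Dars at 4 h) and 0.58 (Qars at 24 h). Hars was the flattest, at 0.28, 0.29, and 0.27. It shares 195 exonic bases with Hars2, the mitochondrial paralogue, on the other strand.

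The 4 genes of serine and asparagine synthesis were higher at 4 and 24 h, and at 8 h 2 of them were. Over all genes tested, 28.6%, 32.4%, and 35.9% were higher at 4, 8, and 24 h. Asns (ENSMUSG00000029752, chr6:7675169-7693254, minus strand) makes asparagine. At 4 h, Asns stood at 317, 337 and 349 CPM in the vehicle libraries and at 344, 369 and 377 CPM in the FGF6 libraries. By 8 h, Asns was at 189, 187 and 189 CPM with vehicle and at 196, 191 and 192 CPM with FGF6. After 24 h, Asns was at 155, 158 and 155 CPM with vehicle and at 224, 221 and 228 CPM with FGF6. The groups overlapped at 4 h and were close together at 8 h, and at 24 h the FGF6 libraries stood well above. For Asns, the log2 fold changes were 0.12 ± 0.04 (SE), 0.04 ± 0.04 and 0.52 ± 0.04 at 4, 8, and 24 h (edgeR adjusted p = 0.00546, 0.359 and 1.49e-12). The difference between 8 and 24 h was 0.48 ± 0.05 (SE) (edgeR interaction, adjusted p = 2.22e-08). The call at 4 h was lost without the vehicle library of 4 h with replicate number 1, at 0.08. With library totals alone 2 of the 4 genes were higher at 4 h. With upper-quartile factors the calls of Asns and Psph at 4 h were lost as well, at 0.06 and 0.09.

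Psat1 (ENSMUSG00000024640, chr19:15904678-15947337, minus strand), the aminotransferase that is the middle step of serine synthesis, was among the most abundant members. At 4 h, Psat1 stood at 653, 705 and 724 CPM in the vehicle libraries and at 835, 905 and 899 CPM in the FGF6 libraries. By 8 h, Psat1 was at 469, 461 and 471 CPM with vehicle and at 632, 637 and 635 CPM with FGF6. After 24 h, Psat1 was at 405, 380.1 and 383 CPM with vehicle and at 612, 598 and 609 CPM with FGF6. FGF6 libraries were above vehicle at each time, and both conditions were lower at 8 and 24 h than at 4 h. For Psat1, the log2 fold changes were 0.34 ± 0.04 (SE), 0.44 ± 0.04 and 0.64 ± 0.04 at 4, 8, and 24 h (edgeR adjusted p = 5.79e-09, 3.69e-11 and 1.9e-14).

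Phgdh (ENSMUSG00000053398, chr3:98313170-98339990, minus strand) encodes the first enzyme of the serine route. At 4 h, Phgdh stood at 159, 173 and 173 CPM in the vehicle libraries and at 190.3, 199 and 193 CPM in the FGF6 libraries. By 8 h, Phgdh was at 124, 129.6 and 124 CPM with vehicle and at 174, 177 and 181 CPM with FGF6. After 24 h, Phgdh was at 109, 104 and 103 CPM with vehicle and at 149.9, 159 and 155 CPM with FGF6. The groups did not overlap at any time. For Phgdh, the log2 fold changes were 0.21 ± 0.04 (SE), 0.49 ± 0.04 and 0.56 ± 0.04 at 4, 8, and 24 h (edgeR adjusted p = 1.94e-05, 7.23e-12 and 6.03e-13), and the effect was larger at 8 than at 4 h by 0.28 ± 0.05 (SE) (edgeR interaction, adjusted p = 0.000128).

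Psph (ENSMUSG00000029446, chr5:129765558-129787449, minus strand), the phosphatase of the last step, had the smallest effects of the route. At 4 h, Psph stood at 115, 122 and 131 CPM in the vehicle libraries and at 131, 140.5 and 136 CPM in the FGF6 libraries. By 8 h, Psph was at 77.1, 79.2 and 76.9 CPM with vehicle and at 79.5, 79.6 and 79.3 CPM with FGF6. After 24 h, Psph was at 60.6, 56.3 and 55.9 CPM with vehicle and at 64.3, 70.0 and 68.4 CPM with FGF6. Its groups did not overlap, though at 4 and 8 h they were apart by a fraction of 1 CPM. For Psph, the log2 fold changes were 0.15 ± 0.04 (SE), 0.03 ± 0.04 and 0.23 ± 0.05 at 4, 8, and 24 h (edgeR adjusted p = 0.00393, 0.534 and 7.95e-05). Psph shares 452 exonic bases with Cct6a on the other strand.

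Most stress and feedback genes were lower with FGF6 at 4 and 8 h. At 4 h, 4 of 6 were lower and 1 was higher. At 8 h 5 of 6 were lower, and at 24 h 2 were lower and 1 was higher, against 34.2%, 38.4%, and 37.9% of all genes lower at the 3 times, so the share lower at 24 h was no larger than that of all genes. Their median log2 fold change was -0.54 at 4 h, -0.64 at 8 h, and 0.09 at 24 h. Ddit3 (ENSMUSG00000025408, chr10:127290774-127296288, plus strand) encodes CHOP, a transcription factor induced by endoplasmic reticulum stress. At 4 h, Ddit3 stood at 84.2, 87.7 and 93.4 CPM in the vehicle libraries and at 61.7, 61.5 and 56.8 CPM in the FGF6 libraries. By 8 h, Ddit3 was at 79.8, 71.7 and 76.4 CPM with vehicle and at 50.4, 46.3 and 45.0 CPM with FGF6. After 24 h, Ddit3 was at 87.8, 89.0 and 89.1 CPM with vehicle and at 38.8, 35.7 and 34.6 CPM with FGF6. The vehicle libraries of 4 and 24 h overlapped, while the FGF6 libraries were lower at each later time. For Ddit3, the log2 fold changes were -0.56 ± 0.05 (SE), -0.68 ± 0.05 and -1.29 ± 0.05 at 4, 8, and 24 h (edgeR adjusted p = 6.15e-10, 1.33e-11 and 4.18e-17). Ddit3 shares 105 exonic bases with another annotated gene of its name and 81 with genes on the other strand. At 24 h its level was 0.410-fold the vehicle level, and the log2 effect changed from 8 to 24 h by -0.60 ± 0.07 (SE) (edgeR interaction, adjusted p = 3.38e-07).

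Sesn2 (ENSMUSG00000028893, chr4:132492032-132510501, minus strand) encodes Sestrin 2, a leucine-binding inhibitor of the growth kinase complex mTORC1. At 4 h, Sesn2 stood at 71.3, 71.5 and 69.6 CPM in the vehicle libraries and at 44.0, 43.1 and 40.9 CPM in the FGF6 libraries. By 8 h, Sesn2 was at 46.5, 41.2 and 42.2 CPM with vehicle and at 28.9, 24.9 and 27.2 CPM with FGF6. After 24 h, Sesn2 was at 56.5, 56.8 and 53.0 CPM with vehicle and at 26.0, 24.2 and 25.3 CPM with FGF6. FGF6 libraries were below vehicle libraries throughout. For Sesn2, the log2 fold changes were -0.73 ± 0.05 (SE), -0.68 ± 0.06 and -1.14 ± 0.06 at 4, 8, and 24 h (edgeR adjusted p = 4.5e-12, 4.6e-11 and 1.06e-15).

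Ddit4 (ENSMUSG00000020108, chr10:59949669-59951834, minus strand) encodes REDD1, another inhibitor of mTORC1, and its effect reversed. At 4 h, Ddit4 stood at 57.7, 57.6 and 61.1 CPM in the vehicle libraries and at 38.0, 36.6 and 32.3 CPM in the FGF6 libraries. By 8 h, Ddit4 was at 54.8, 48.6 and 43.6 CPM with vehicle and at 19.6, 18.9 and 17.8 CPM with FGF6. After 24 h, Ddit4 was at 122, 123 and 116 CPM with vehicle and at 140.3, 152 and 149.9 CPM with FGF6. The FGF6 libraries lay below the vehicle libraries at 4 and 8 h and above them at 24 h, when both conditions had risen. For Ddit4, the log2 fold changes were -0.72 ± 0.06 (SE), -1.38 ± 0.07 and 0.29 ± 0.06 at 4, 8, and 24 h (edgeR adjusted p = 3.76e-10, 3.27e-15 and 7.24e-05). The effect changed by -0.66 ± 0.10 (SE) from 4 to 8 h and by 1.67 ± 0.09 (SE) from 8 to 24 h (edgeR interaction, adjusted p = 7.9e-06 and 8.65e-14).

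Trib3, a pseudokinase that feeds back on ATF4, was lower early, at -0.51 ± 0.06 (SE) on the log2 scale after 4 h and -0.40 ± 0.08 (SE) after 8 h (edgeR adjusted p = 1.61e-07 and 5.93e-05). At 24 h it was at 22.2 ± 1.99 CPM (SD, n = 3) with vehicle and 23.1 ± 1.90 CPM with FGF6, and the groups overlapped.

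Vldlr (ENSMUSG00000024924, chr19:27216484-27254231, plus strand), the receptor for very low density lipoprotein, was the least abundant member, with 60 to 575 counts in a library. At 4 h, Vldlr stood at 12.3, 11.8 and 14.0 CPM in the vehicle libraries and at 13.8, 18.3 and 17.6 CPM in the FGF6 libraries. By 8 h, Vldlr was at 4.48, 4.55 and 4.24 CPM with vehicle and at 2.90, 3.29 and 2.47 CPM with FGF6. After 24 h, Vldlr was at 3.05, 2.90 and 3.36 CPM with vehicle and at 4.67, 3.54 and 3.30 CPM with FGF6. The groups overlapped at 4 h, where the gene was nonetheless called higher, and at 24 h, and at 8 h the FGF6 libraries were all below. For Vldlr, the log2 fold changes were 0.39 ± 0.10 (SE), -0.61 ± 0.15 and 0.31 ± 0.16 at 4, 8, and 24 h (edgeR adjusted p = 0.00213, 0.000978 and 0.0734). Its value at 24 h passed the threshold in 7 of 26 alternatives, with DESeq2 (0.33) and without any of 6 libraries (0.36 to 0.45). Among these 6 were each FGF6 library of 4 h (0.36) and the vehicle library that stood apart (0.41).

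Chac1 (ENSMUSG00000027313, chr2:119351229-119354381, plus strand), whose product breaks down glutathione, was called at no time. At 4 h, Chac1 stood at 31.9, 31.9 and 30.6 CPM in the vehicle libraries and at 32.9, 32.1 and 31.4 CPM in the FGF6 libraries. By 8 h, Chac1 was at 13.3, 10.7 and 10.9 CPM with vehicle and at 15.9, 11.2 and 11.7 CPM with FGF6. After 24 h, Chac1 was at 17.8, 14.7 and 16.4 CPM with vehicle and at 18.1, 17.0 and 18.1 CPM with FGF6. The groups overlapped at each time, while both were much lower at 8 h than at 4 h. For Chac1, the log2 fold changes were 0.03 ± 0.08 (SE), 0.16 ± 0.10 and 0.13 ± 0.10 at 4, 8, and 24 h (edgeR adjusted p = 0.781, 0.171 and 0.249). The value at 8 h passed the threshold when the FGF6 library with replicate number 2 (0.26) or 3 (0.27) or the vehicle library with replicate number 1 (0.27) of that hour was left out, and it was -0.03 without the FGF6 library of that hour with replicate number 1. Without the vehicle library of 24 h with replicate number 1, the value at 24 h passed it at 0.24.

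**Figure D2:**
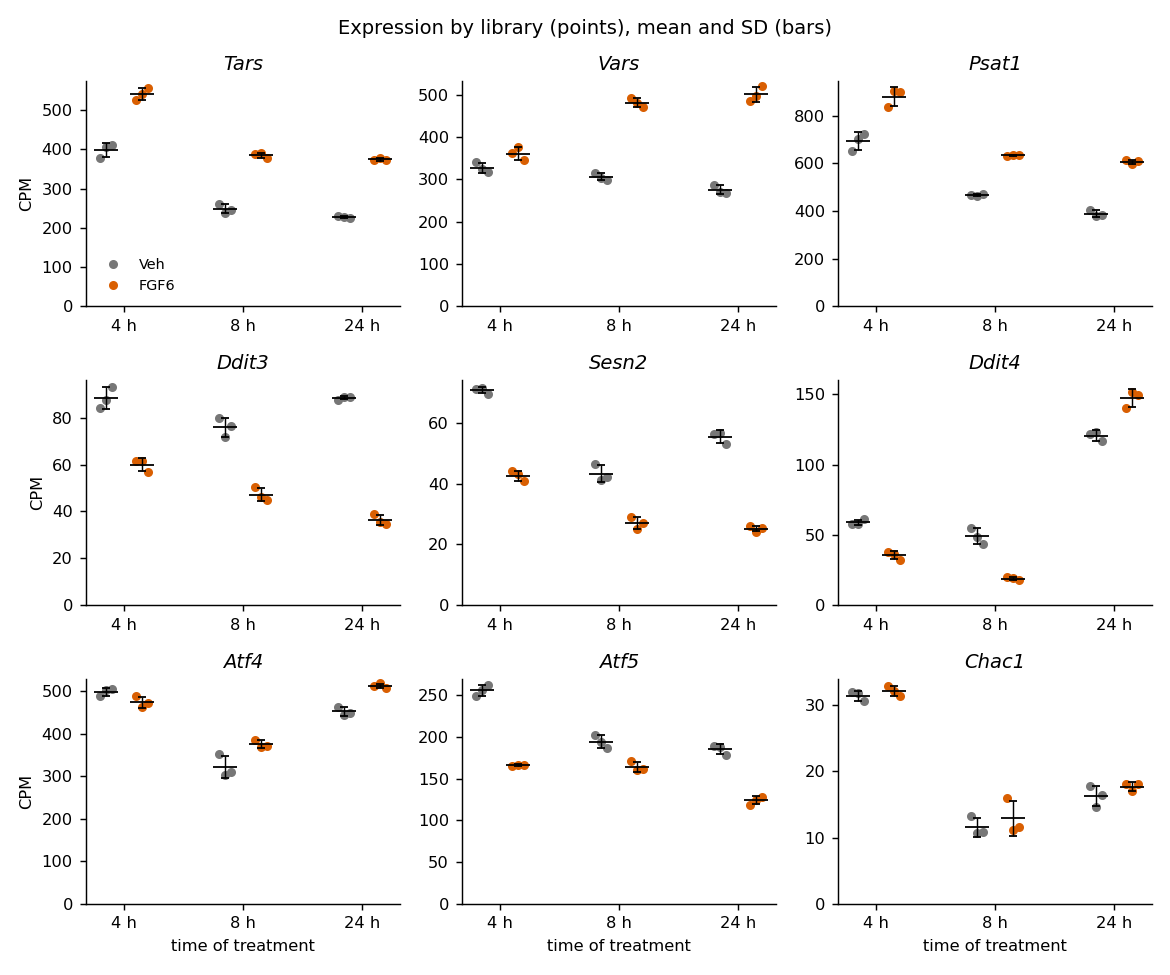
CPM of 9 members in each of the 18 libraries (points) at 4, 8, and 24 h, vehicle in grey and FGF6 in orange, with the mean and SD of 3 libraries in black. Vertical axes start at 0. Tars falls from 4 to 8 h in both conditions and stays higher with FGF6, Ddit3 and Sesn2 are lower with FGF6 at each time, and Ddit4 is lower at 4 and 8 h and higher at 24 h.

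The transcription factors did not move together. Atf4 (ENSMUSG00000042406, chr15:80255184-80257541, plus strand) is the factor for which the pathway is named. At 4 h, Atf4 stood at 487, 502 and 506 CPM in the vehicle libraries and at 488, 461 and 472 CPM in the FGF6 libraries. By 8 h, Atf4 was at 351, 303 and 309 CPM with vehicle and at 386, 368 and 372 CPM with FGF6. After 24 h, Atf4 was at 463, 444 and 449.6 CPM with vehicle and at 511, 518 and 508 CPM with FGF6. FGF6 and vehicle overlapped at 4 h, and the FGF6 libraries were above at 8 and 24 h. For Atf4, the log2 fold changes were -0.07 ± 0.04 (SE), 0.23 ± 0.04 and 0.18 ± 0.04 at 4, 8, and 24 h (edgeR adjusted p = 0.117, 2.38e-05 and 0.000273). With library totals alone as the scaling, the value at 4 h was -0.17 and passed the threshold. It also passed with upper-quartile factors, at -0.13, and without the vehicle library of 8 h with replicate number 1, at -0.07.

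Atf5 (ENSMUSG00000038539, chr7:44812256-44816658, minus strand), a relative of Atf4 that is also translated under eIF2 phosphorylation, was lower at each time. At 4 h, Atf5 stood at 249, 256 and 263 CPM in the vehicle libraries and at 165, 167 and 166 CPM in the FGF6 libraries. By 8 h, Atf5 was at 203, 194 and 186 CPM with vehicle and at 171, 160.0 and 162 CPM with FGF6. After 24 h, Atf5 was at 189, 188 and 179 CPM with vehicle and at 119, 125 and 128 CPM with FGF6. The groups did not overlap. For Atf5, the log2 fold changes were -0.63 ± 0.04 (SE), -0.24 ± 0.04 and -0.58 ± 0.04 at 4, 8, and 24 h (edgeR adjusted p = 1.63e-13, 2.82e-06 and 4.19e-13). The log2 effect changed by 0.38 ± 0.05 (SE) from 4 to 8 h, towards 0, and by -0.34 ± 0.05 (SE) from 8 to 24 h, away from it (edgeR interaction, adjusted p = 4.32e-06 and 1.01e-05).

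Cebpg (ENSMUSG00000056216, chr7:35046422-35056573, minus strand), a dimer partner of ATF4, changed little. At 4 h, Cebpg stood at 91.2, 95.8 and 98.1 CPM in the vehicle libraries and at 97.0, 103 and 106 CPM in the FGF6 libraries. By 8 h, Cebpg was at 80.8, 74.9 and 82.9 CPM with vehicle and at 84.8, 81.2 and 77.2 CPM with FGF6. After 24 h, Cebpg was at 84.5, 85.0 and 83.0 CPM with vehicle and at 75.5, 77.1 and 79.9 CPM with FGF6. The groups overlapped at 4 and 8 h, and at 24 h the FGF6 libraries were all below. For Cebpg, the log2 fold changes were 0.10 ± 0.04 (SE), 0.03 ± 0.04 and -0.12 ± 0.04 at 4, 8, and 24 h (edgeR adjusted p = 0.0437, 0.563 and 0.0177). The call at 24 h was lost in 10 of 26 alternatives, among them the one without the vehicle library that stood apart, at -0.09. It was also lost without any 1 FGF6 library of 4 h, at -0.08. At 4 h the call was lost in 6 of 26, and with library totals alone the value was -1e-04.

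The libraries of the conditions lay apart for most members, as they did for most genes. At 4 h, 26 of 33 had groups that did not overlap, with 20 above and 6 below, against 66.2% of the genes tested. At 8 h there were 25 above and 6 below, against 73.8%, and at 24 h 23 above and 4 below, against 74.8%.

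Most members fell in vehicle cells between 4 and 8 h, the ATF4-listed synthetases by more than the other synthetases. Of the 33 members, 28 were lower and 1 was higher at 8 than at 4 h, against 21.7% and 21.2% of all genes tested. By 1.5-fold or more, 14 fell and 0 rose, against 4.53% and 2.46%. All 12 synthetases listed as ATF4 targets fell, with log2 fold changes between -0.78 (Cars) and -0.30 (Mars) and a median of -0.60. The 8 other synthetases lay between -0.24 (Farsb) and 0.15 (Qars) with a median of -0.07, of which 3 were lower and 1 was higher, so the 2 ranges did not overlap. All 4 genes of serine and asparagine synthesis fell, from -0.83 for Asns to -0.42 for Phgdh. All 6 stress genes fell, with Vldlr at -1.52 ± 0.12 (SE), Chac1 at -1.44 ± 0.09 (SE), and Trib3 at -1.37 ± 0.07 (SE) (edgeR adjusted p = 1.98e-10, 4.65e-12, and 3.75e-14). The 3 transcription factors were lower as well, with Atf4 at -0.63 ± 0.04 (SE) (edgeR adjusted p = 3.5e-12). With FGF6 the median of the ATF4-listed synthetases was -0.48 and that of the others 0.09 between 4 and 8 h, given as values with no test. The vehicle libraries at 4 and 8 h also entered the FGF6 comparisons of those hours.

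From 8 to 24 h the vehicle cells showed a weaker and mixed picture. Of the members, 9 were higher and 17 lower, against 25.5% and 23.7% of all genes tested. With library totals alone the share of called genes that were higher went from 51.8% to 36.4%, and 7 members were higher and 21 lower. With upper-quartile factors 8 members were higher and 20 lower, so the balance depended on the scaling. Without the vehicle library that stood apart 9 members were higher and 15 lower. By 1.5-fold or more, Ddit4 alone rose and no member fell, against 6.22% and 4.58%. Ddit4 rose by 1.30 ± 0.06 (SE), Atf4 by 0.49 ± 0.04 (SE), and Chac1 by 0.48 ± 0.10 (SE) (edgeR adjusted p = 8.18e-15, 2.88e-10, and 0.000289). The genes of serine and asparagine synthesis all fell further, with a median of -0.27.

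The 9 members with the element letters all fell in vehicle cells from 4 to 8 h, with a median of -0.69 and a range of -1.52 to -0.56. Of the 16 members with a window but without the letters, 13 were lower and 1 was higher, with a median of -0.29. The 2 sets differ in role. The 9 include 5 synthetases listed as ATF4 targets and 0 other synthetases, while the 16 include 5 other synthetases. The 8 members without a window, among them Cars, Nars, and Wars, are in neither set. The part of role in this difference was not tested. Among all tested genes with a window, 27.6% of the 301 with the letters were lower and 19.6% higher, against 23.4% and 23.8% of the 10382 without, and the medians were -0.01 and 0.01. At 24 h the FGF6 effect had a median of 0.31 in the 9 members and 0.26 in the 16, with 4 and 11 called higher and 0 and 4 lower. Among all tested genes with a window, 38.5% of those with the letters and 38.1% of those without were higher at 24 h. Of the same genes, 40.5% and 40.0% were lower. The 4 of 9 members called higher were near the 38.5%, while 0 of the 9 were lower and 11 of the 16 were higher. At 4 and 8 h, 6 and 5 of the 9 members were higher and 1 and 2 lower. Of the 16, 10 and 9 were higher and 4 and 4 lower. Tested genes with the letters were higher in 28.2% and 32.2% at those hours and lower in 33.2% and 40.2%. Those without were higher in 30.5% and 34.1% and lower in 37.2% and 41.1%.

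**Figure D3:**
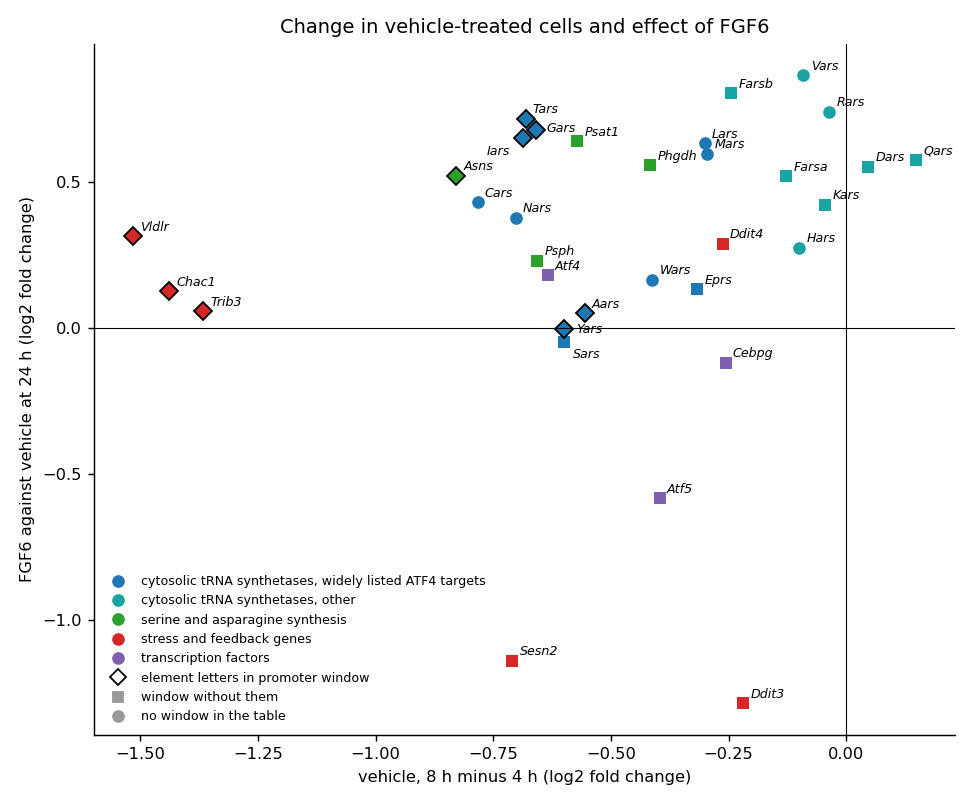
Log2 fold change in vehicle cells from 4 to 8 h (horizontal axis) against that of FGF6 over vehicle at 24 h (vertical axis) for the 33 members, coloured by role. The 2 comparisons share no library, and diamonds mark the 9 members with the element letters. The synthetases listed as ATF4 targets lie between -0.78 and -0.30 on the horizontal axis and the other synthetases between -0.24 and 0.15, while both kinds reach above 0.7 on the vertical axis.

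Levels between genes were compared per kilobase of exon, in vehicle at 4 h. Atf4 stood first at 211 CPM per kb, and no library of another member reached it. Psat1 at 163 and Gars at 156 followed and did not differ beyond their spread, then Atf5 at 128 and Asns at 122, which also overlapped, and Aars at 109 and Nars at 107. At the foot of the order were Cebpg at 16.9 and Qars at 16.1, which overlapped, and Vldlr at 1.26. These lengths are the union of annotated exons, which for Eprs is 18102 bases, and long unions lower the value.

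Other genes of the pathway were described, again by the log2 fold change of FGF6 against vehicle, in lists of the mitochondrial synthetases, the synthetase scaffold, the eIF2 kinases, further ATF4 targets, and the endoplasmic reticulum stress response. Of 17 mitochondrial synthetases 5 rose and 7 fell at 4 h, 6 rose and 5 fell at 8 h, and 8 rose and 2 fell at 24 h, with medians of -0.09, 0.01, and 0.11. For these and the further lists, the shares of all genes tested were 28.6%, 32.4%, and 35.9% higher and 34.2%, 38.4%, and 37.9% lower at the 3 times, and the shares of mitochondrial synthetases higher at 4 and 8 h were near them. With library totals alone, 2 rose and 9 fell at 4 h, and without the vehicle library that stood apart the median at 24 h was 0.21. Yars2 rose by up to 0.97 and Mars2 by up to 0.66, both at 8 h, and Sars2 was lower, at -0.73 at 4 h. Lars2 was called lower at 24 h at -2.41, and without the vehicle library that stood apart its value was -0.15. All 3 scaffold genes of the multi-synthetase complex rose at 8 and 24 h, with Eef1e1 at 1.13, 1.51, and 1.58 and Aimp2 at 0.39, 0.88, and 0.64. The third, Aimp1, was not called at 4 h.

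Of 9 genes for eIF2 kinases, eIF2 phosphatase subunits, and eIF2 itself, 5 rose and 2 fell at 4 h. At 8 h 5 rose and 3 fell, and at 24 h 3 rose and 4 fell. Of all genes tested, 28.6%, 32.4%, and 35.9% were higher and 34.2%, 38.4%, and 37.9% lower at the 3 times. The counts at 24 h were near these shares. The subunits Eif2s1 and Eif2s2 rose to 0.94 and 0.64 at 24 h. The kinase genes Eif2ak2 (PKR) and Eif2ak3 (PERK) fell, at -2.33 for the former at 24 h and -0.79 for the latter at 8 h.

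Among the further ATF4 targets, 5, 6, and 7 of 10 enzymes of one-carbon and amino acid metabolism were higher and 2, 3, and 3 were lower at 4, 8, and 24 h, against 28.6%, 32.4%, and 35.9% of all genes higher and 34.2%, 38.4%, and 37.9% lower. Their medians were 0.20, 0.27, and 0.49. Cth, which makes cysteine from cystathionine, rose by 1.42 at 24 h, and Shmt2, which supplies mitochondrial one-carbon units from serine, by 0.92. Aldh1l2 and Pck2 were lower at 24 h, at -0.74 and -0.59. Of 9 amino acid transporters, 6 rose and 2 fell at 4 h, 5 rose and 2 fell at 8 h, and 4 rose and 3 fell at 24 h. The cystine transporter Slc7a11 rose by 0.89, 1.38, and 1.88, and Slc7a1, for cationic amino acids, by 1.07 at 8 h. Slc43a1 was lower, at -1.28 at 24 h, and Slc38a2, for small neutral amino acids, was at -0.57 at 4 h and 0.11 at 24 h. Both were called at those times.

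The 13 further stress and secreted targets were split, with 5 higher and 5 lower at 4 h, and 4 higher and 8 lower at 8 and at 24 h. For this list and the next, the shares of all genes tested were 28.6%, 32.4%, and 35.9% higher. The shares lower were 34.2%, 38.4%, and 37.9%. Vegfa, an angiogenic factor, rose by 1.40 at 4 h and Stc2, a secreted glycoprotein, by 1.38 at 24 h. Gdf15, a secreted stress hormone, was lower, at -1.73 at 24 h. Fgf21 was called lower at 8 h on 7 to 12 counts in the vehicle libraries and 0 to 6 in the FGF6 libraries, too few for a reliable size. Of 14 chaperones and other genes of the unfolded protein response, 3 rose and 8 fell at 4 h, 2 rose and 11 fell at 8 h, and 5 rose and 4 fell at 24 h. Ern1 (IRE1) and Atf6 rose, by 1.31 at 4 h and 0.63 at 8 h, and Xbp1 and Sdf2l1 fell, at -0.86 and -0.65 at 8 h.

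**Figure D4:**
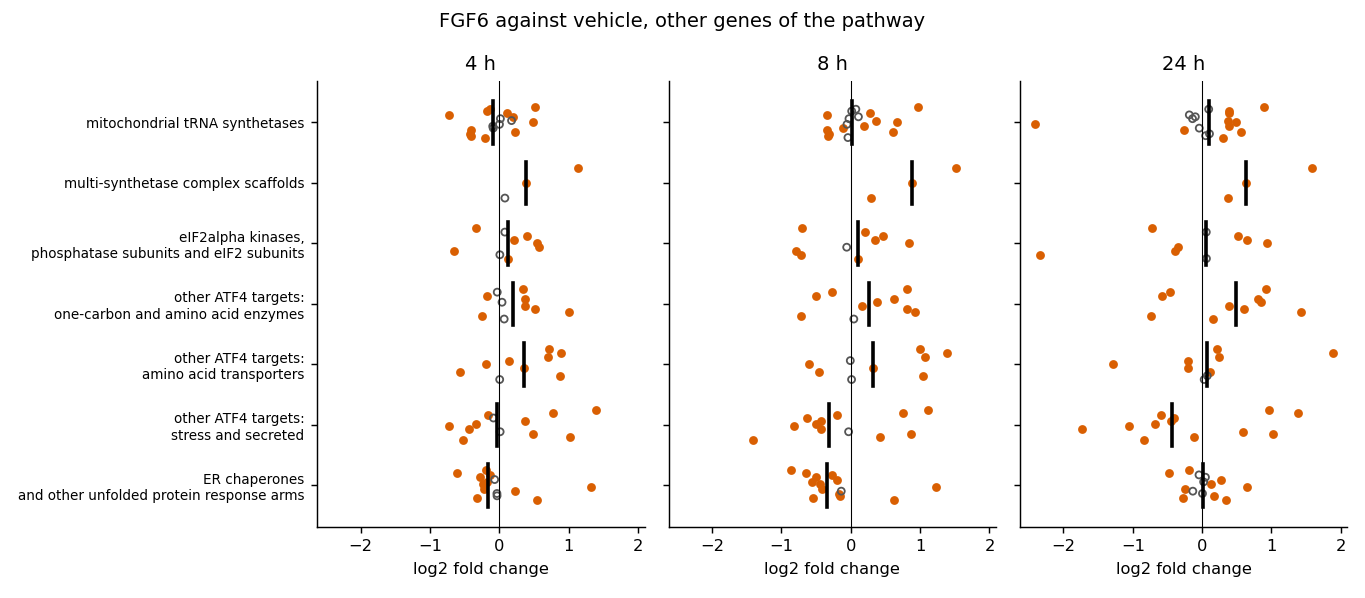
Log2 fold change of FGF6 against vehicle (horizontal axis) for the genes of 7 further pathway lists at 4, 8, and 24 h. Filled points passed an adjusted p under 0.05 and black bars mark the median of a list. Fgf21 is left out of the points and the median for its low counts, and the mitochondrial synthetase near -2.4 at 24 h is Lars2, which rests on 1 vehicle library. The 3 scaffold genes lie right of 0 in each panel, and the unfolded protein response genes lie mostly left of 0 at 8 h.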

How the data were processed

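Total RNA was isolated, and 18 libraries in 6 groups of 3 were sequenced. Condition, time, and replicate number came from the sample titles. Reads were mapped to GRCm38 with STAR by the authors, who obtained gene counts with featureCounts of the Subread package and deposited these raw counts as 1 table. Tool versions, the strand setting, and the treatment of reads with several positions are not given in the sources used here. GENCODE M21 gave names to 47310 of the 48023 gene IDs (98.5%).

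With the deposited counts, edgeR 4.0.16 in R 4.3.3 kept 15071 genes (filterByExpr), and after TMM scaling a quasi-likelihood fit with 1 mean for each of 6 groups was made across the 18 libraries. P-values were adjusted by Benjamini-Hochberg over all genes tested, and a gene was called at an adjusted p under 0.05. The study used voom and limma with an FDR of 0.25. The SE of a log2 fold change was taken from the F statistic. The smallest p of an exact permutation test between groups of 3 is 0.1. On simulated counts for FGF6 against vehicle at 24 h over 14522 genes, 88.1% of changes of 0.5 and 97% of changes of 1 on the log2 scale were found, with 10 false calls. Only 101 genes were changed by 0.5 and 99 by 1, in both directions, and no simulated library stood apart. In the data 73.8% of genes were called at 24 h, so these rates need not hold there. At these depths, 3 counts correspond to between 0.0905 and 0.126 CPM.

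The members and lists were chosen with earlier results of these data known. All members are reported, and 2 element sites are not reported here. Values in every library are given for the 3 members with the largest effect in each role, those called in opposite directions at 2 times, those called at no time, and all of the serine and asparagine group and the transcription factors. From each pathway list the 2 largest rises and 2 largest falls among called genes are named. Same-numbered libraries of the vehicle and FGF6 groups correlated by -0.03 to 0.05 in their deviations, so the numbers were not treated as pairs. The alternatives were limma 3.58.1 with voom, DESeq2 1.42.0, library totals and upper-quartile scaling, 2 other filters, only the libraries of the times compared, a replicate block, 2 other thresholds, and leaving out each library.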

Additional observations from a re-analysis of the deposited data

Results flagged for a closer look

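The test of the difference between the FGF6 effects at 2 times passed an adjusted p under 0.05 (edgeR interaction) for 15 members from 4 to 8 h and 19 members from 8 to 24 h, against 30.6% and 45.1% of all genes tested. From 4 to 8 h the log2 effect moved up by 0.51 in Vars, 0.38 in Atf5, 0.36 in Iars, and 0.32 in Mars. The same move was 0.30 in Atf4, 0.28 in Phgdh, 0.26 in Gars, 0.25 in Farsa, and 0.21 in Farsb. In Cars, Tars, and Dars it was 0.20, 0.19, and 0.16. For Atf5 it was a move towards 0, from -0.63 to -0.24. The log2 effect changed by -1.0 in Vldlr, -0.66 in Ddit4, and -0.17 in Wars. From 8 to 24 h it moved up by 1.67 in Ddit4, 0.92 in Vldlr, 0.48 in Asns, and 0.46 in Trib3. The move was 0.45 in Lars, 0.36 in Mars, 0.28 in Dars, 0.28 in Rars, and 0.21 in Vars. It was 0.20 in Qars, 0.20 in Psat1, 0.20 in Psph, 0.16 in Gars, and 0.12 in Iars. Ddit4, Vldlr, and Trib3 went from -1.38, -0.61, and -0.40 at 8 h to 0.29, 0.31, and 0.06 at 24 h. The values of Vldlr and Trib3 at 24 h were not called. The log2 effect changed by -0.60 in Ddit3, -0.46 in Sesn2, -0.34 in Atf5, -0.25 in Sars, and -0.22 in Yars. Both tests use the FGF6 and vehicle libraries at 8 h. No technical or biological cause of these differences was tested.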

How the results depend on the processing

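Counts of members called higher and lower stayed within 1.5 times under voom, DESeq2, upper-quartile factors, both filters, the subset of times, and an adjusted p under 0.25. With library totals alone, 15 members were higher at 4 h in place of 23, Aars was at -0.0881, Eprs at -0.0677, Lars at -0.0078, and Cebpg at -1e-04. A minimum of 1.5-fold left 0 higher and 3 lower at 4 h, 3 higher at 8 h, 9 higher and 2 lower at 24 h, 2 and 3 changes of effect from 4 to 8 h and from 8 to 24 h, 0 higher and 14 lower in vehicle from 4 to 8 h, and 1 higher and 0 lower from 8 to 24 h. By construction it keeps fewer genes. With each library left out in turn, members higher and lower ran from 20 to 24 and 5 to 7 at 4 h, 22 to 24 and 6 to 6 at 8 h, and 23 to 25 and 3 to 4 at 24 h. The changes of effect ran from 13 to 17 and from 18 to 20, and vehicle from 1 to 1 and 27 to 29 for 4 to 8 h and from 8 to 10 and 15 to 18 for 8 to 24 h. Of 792 values of single members under the other settings, 763 kept their side of the threshold and direction, 18 lost their call, 7 gained one, and 4 reversed, and of 1782 with a library left out 26 lost and 33 gained. The replicate block gave 29, 28, and 27 members called at 4, 8, and 24 h, as without it, 15 and 19 for the changes of effect, and 30 in place of 29 for vehicle from 4 to 8 h. Same-numbered libraries shared only a number. Depth limits Vldlr most, the member with the fewest counts (60 in 1 library).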
